A study of Danio rerio with 9 samples.

Results

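The hox genes of the zebrafish were followed through 9 stages of development, by paralog group and by cluster. Members were the genes of the deposited expression table whose symbol, looked up from the Ensembl gene ID and read without regard to case, is hox, a cluster letter from a to d and a paralog number from 1 to 13. The rule found 38 of 29291 genes, with 5 in clusters lettered A, 15 in B, 11 in C and 7 in D. The name table holds 48 IDs of this form, and the 10 others have no row in the expression table, among them those of hoxa9a and hoxa13a, so cluster A is represented mainly by its second copy.

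Hox genes encode homeodomain transcription factors that give cells their position along the head-to-tail axis. They lie in clusters in which genes of low paralog number act towards the head and genes of high number towards the tail, and genes nearer the low-number end tend to be switched on earlier and further forward, an arrangement called collinearity. Bony fishes of the teleost line carry extra clusters from an ancestral genome duplication, so many paralog groups hold an a and a b copy. In the zebrafish embryo hox genes pattern the hindbrain, the pharyngeal arches, the spinal cord and trunk mesoderm, and later the fins.

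Whole wild-type animals of the AB strain were pooled, about 2000 per stage, kept at about 28.5 °C, and their poly(A) RNA was sequenced with 1 library per stage. The stages were 64-cell at 2 hours post-fertilization (hpf), oblong-sphere at 3.6 to 4 hpf, 50%-epiboly at 5.25 hpf, 15-somite at 16.5 to 17.5 hpf, Prim-25 at 36 hpf, Long-pec at 48 hpf, Pec-fin at 60 hpf, Protruding-mouth at 72 hpf and the larva at 1 week. No genetic change or treatment is labelled. With 1 library per stage there is no replicate error and no test between stages was made, so every difference describes these libraries. Levels are in RPKM, reads scaled by gene length and by the library's mapped reads. Differences are of log2(RPKM + 1), later minus earlier stage, a scale that understates differences of low genes.

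Libraries of 1 run held between 123311411 (64-cell) and 205507592 (Protruding-mouth) mapped reads. The steps of its values had Pec-fin read as the mean of 2 runs, which the labels do not state. Of 22 listed exocrine pancreas enzymes 16 were measured, and their summed level differed between early libraries, at 84.0 RPKM at 64-cell (12 at 1 RPKM or more, 0 listed at 0), 0.538 at oblong-sphere (0 at 1 RPKM, 2 listed at 0) and 47.6 at 50%-epiboly. It was 106 RPKM at 15-somite, 22.4 at Prim-25, 82.2 at Long-pec, 7.09 at Pec-fin, 177 at Protruding-mouth and 32739 at 1 week. Whether RNA that carried these enzymes also carried hox transcripts was not tested. Since whole animals were pooled, fewer cells of a type and less RNA per cell cannot be told apart.

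The name table writes many symbols as in mammals (HOXB9), and they are given here in zebrafish form (hoxb9a) by elimination. This was done where the name table holds a single ID and 1 RefSeq copy is left. Copies that the name table already gives with a letter were set aside first. HOXB6 and HOXB8 thus became hoxb6a and hoxb8a. For 6 members the copy was not resolved. These are HOXA11, HOXC6, HOXC12, HOXC13 and both genes named HOXB5, which are told apart by their IDs, ENSDARG00000013057 and ENSDARG00000054030. Overlaps were read from the coordinates of RefSeq's annotation of a later assembly (GRCz12tu). There 12 members overlap another hox gene, hoxb3a and hoxc3a with the most. The rest are hoxb1b, hoxd3a, hoxb4a, hoxc4a, hoxd4a, hoxc5a, hoxb6a, hoxb6b, hoxc8a and hoxc9a. The 6 unresolved members were not assessed, though the spans of hoxb5a and hoxb5b overlap those of hoxb3a and hoxb1b. The counting rule for shared reads is not given in the sources used here.

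Hox transcripts were scarce before 50%-epiboly, high by 15-somite and lower again in the larva. The summed level of the 38 genes was 7.80 RPKM at 64-cell, 4.04 at oblong-sphere, 81.0 at 50%-epiboly, 385 at 15-somite, 309 at Prim-25, 405 at Long-pec, 401 at Pec-fin, 356 at Protruding-mouth and 135 at 1 week. Members at 1 RPKM or more numbered 3, 0, 9, 36, 37, 38, 38, 36 and 34 in that order. The same share of all genes in the table was 39.9%, 39.7%, 36.5%, 44.6%, 46.6%, 45.9%, 46.9%, 53.1% and 59.3%. Of the 19868 genes at 1 RPKM or more in at least 1 library, which include all 38 members, it was 58.9%, 58.6%, 53.9%, 65.8%, 68.7%, 67.7%, 69.2%, 78.3% and 87.5%. Hox genes were thus detected less widely than genes at large up to 50%-epiboly and more widely from 15-somite to Protruding-mouth, while at 1 week their share was near that of the filtered genes. No member stayed under 1 RPKM throughout, and the lowest maximum was that of hoxd13a, 1.62 RPKM.

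**Figure D1:**
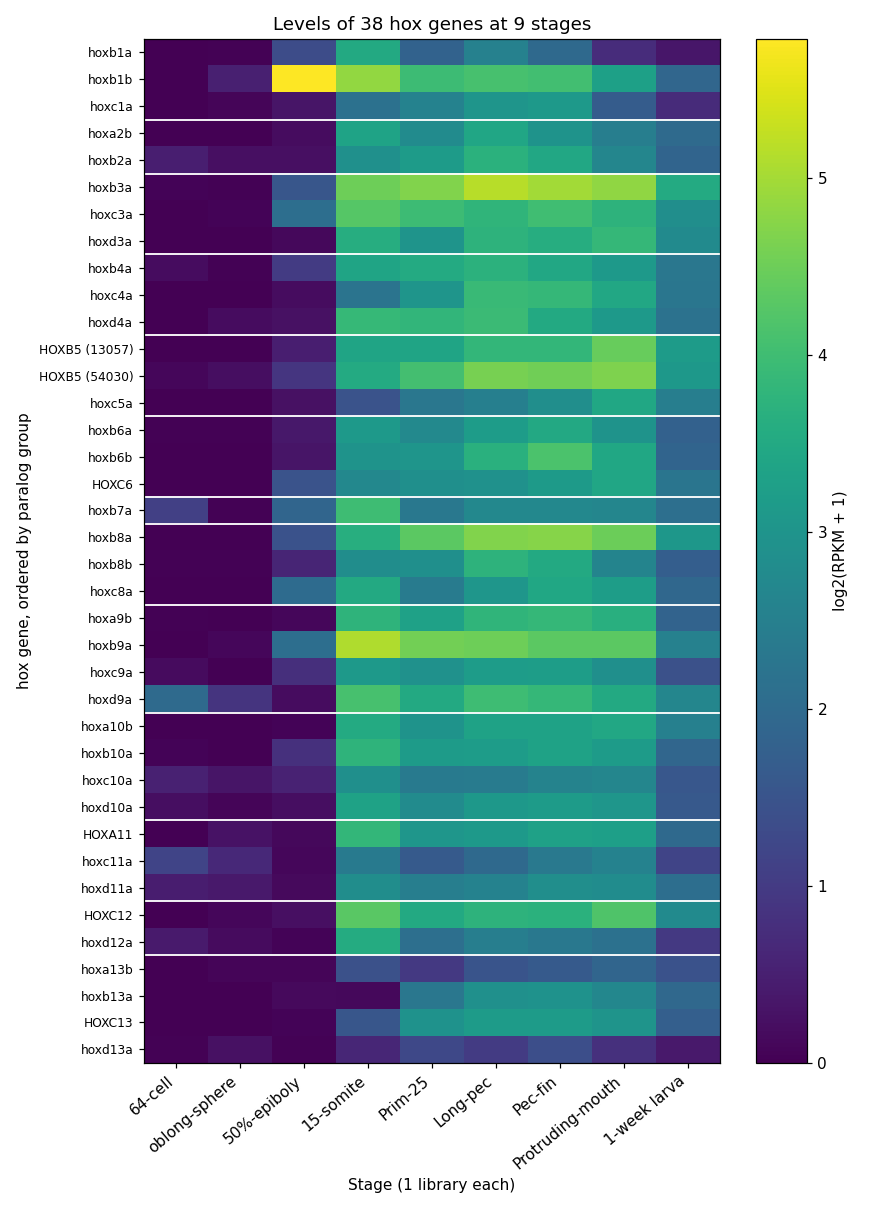
Level of each of the 38 hox genes (rows, in order of paralog group, with white lines between groups) in each library (columns), as log2(RPKM + 1) in colour. Most rows are dark up to 50%-epiboly, where hoxb1b alone is bright at 54.1 RPKM, and bright from 15-somite. The row of hoxb13a stays dark until Prim-25. Those of hoxd13a and hoxa13b stay low in every library, at most 1.62 and 2.67 RPKM. The HOXB5 genes carry the last digits of their IDs.

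Most members first reached 1 RPKM at 50%-epiboly or 15-somite, and the order followed paralog number only in part. At 50%-epiboly 8 members passed 1 RPKM for the first time, hoxb1a, hoxb1b, hoxb3a, hoxc3a, HOXC6, hoxb8a, hoxc8a and hoxb9a. All have paralog numbers of 9 or less, 4 of them in groups 1 to 4, 3 in groups 5 to 8 and 1 in groups 9 to 13. At 15-somite 25 more did so, 7, 6 and 12 of the 3 classes. The last were 2 members of group 13, hoxb13a and hoxd13a, at Prim-25, while hoxa13b and HOXC13 of that group passed at 15-somite. With 0.5 RPKM as threshold 13 members were first seen at 50%-epiboly, hoxb10a (0.750 RPKM) among them, and 1 at Prim-25. The other 3 were at 1 RPKM or more already at 64-cell and are described below. The shares of all genes that first reached 1 RPKM at each stage were not computed.

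Across the 38 genes, Spearman's correlation of level with paralog number was 0.29 at 64-cell, 0.11 at oblong-sphere and -0.55 at 50%-epiboly (-0.51 without hoxb1b). It was negative at every later stage too, at -0.24 at 15-somite, -0.37 at Prim-25, -0.46 at Long-pec, -0.39 at Pec-fin, -0.19 at Protruding-mouth and -0.27 at 1 week. The points of each value share a library, so the values describe it and carry no p-value. At 64-cell and oblong-sphere the median member was at 0.0140 and 0.0241 RPKM, where 3 reads of hoxb1a would be 0.0161 and 0.0105 RPKM. The correlations at these stages thus largely rank levels of few reads. The order was not strict within a cluster. At 50%-epiboly, among the B genes resolved as copy a, hoxb1a was at 1.55 RPKM, hoxb2a at 0.187, hoxb3a at 1.93, hoxb4a at 0.994, hoxb6a at 0.288, hoxb7a at 2.72, hoxb8a at 1.73, hoxb9a at 3.26, hoxb10a at 0.750 and hoxb13a at 0.0997. Among these hoxb9a was the highest and hoxb2a lower than 8 of the other 9. Clusters also differed. At 50%-epiboly cluster B held 86.0% of the summed hox level, cluster C 12.5%, cluster D 0.956% and cluster A 0.496%, with 0 of 5 members of A and 0 of 7 of D at 1 RPKM. Without hoxb1b the shares were 57.8% for B, 37.8% for C, 2.88% for D and 1.495% for A. The measured genes of A are of groups 2, 9, 10, 11 and 13, and those of D of groups 3, 4 and 9 to 13. The clusters are thus not compared over the same paralog groups, and cluster was not separated from paralog number.

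**Figure D2:**
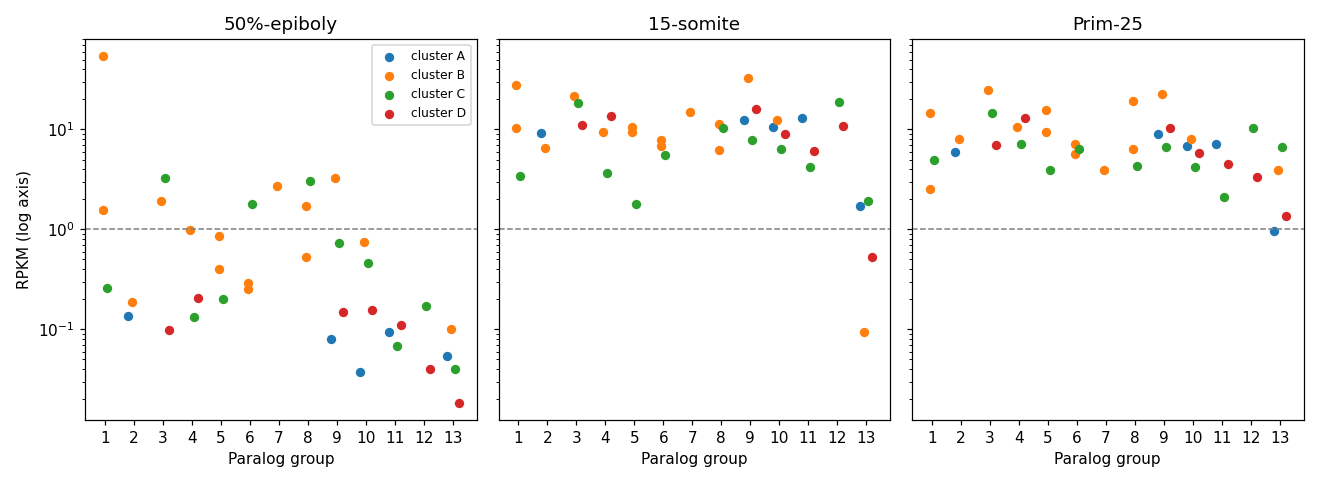
Level of each hox gene in RPKM (log axis) by paralog group at 50%-epiboly, 15-somite and Prim-25, coloured by cluster letter, with a dashed line at 1 RPKM. At 50%-epiboly groups 11 to 13 lie between 0.0185 and 0.170 RPKM. By 15-somite hoxb13a (0.0930 RPKM) and hoxd13a (0.529 RPKM) alone are under the line, and by Prim-25 hoxa13b alone (0.958 RPKM).

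At 64-cell, before the zygotic genome is broadly active, 3 members stood above the rest. These were hoxd9a with 3.01 RPKM (522 reads, exact 95% Poisson interval 2.76 to 3.28), hoxc11a with 1.26 RPKM (307 reads, 1.13 to 1.41) and hoxb7a with 1.13 RPKM (219 reads, 0.984 to 1.29). At oblong-sphere they were at 0.836, 0.581 and 0.0168 RPKM, the last from 5 reads. The intervals cover counting error only. The median of all members at 64-cell was 0.0140 RPKM, and hoxa2b, hoxc4a and hoxb13a were listed at 0, where 3 reads of hoxa2b would be 0.0127 RPKM. Between these libraries hoxd9a (-1.13) and hoxb7a (-1.07) were at least 2-fold lower and 0 members higher, 2 of 38, where 3.3% of all 19868 genes past the filter were lower and 3.1% higher. These counts depend on the pseudocount of 1, which understates differences of low genes. With a pseudocount of 0.1, 4 members were higher and 4 lower. The shares of all genes at that pseudocount were not computed. The drop in the exocrine enzymes between the same libraries is given above, and its relation to these values was not tested.

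From oblong-sphere to 50%-epiboly 9 members were at least 2-fold higher and 0 lower, against 14.4% higher and 31.1% lower among all genes. Groups 1 to 4 supplied 4 of these, groups 5 to 8 another 4 and groups 9 to 13 the last 1. The largest differences were those of hoxb1b (5.28) and hoxc3a (2.02). A pseudocount of 0.1 changed this count to 21 higher and 3 lower, for which no share of all genes was computed. From 50%-epiboly to 15-somite 35 of 38 were at least 2-fold higher and 0 lower, where 16.4% and 4.91% of all genes were, and the median difference was 2.51 against 0.18 for all genes. HOXC12 (4.08) and hoxd9a (3.90) led. Clusters A and D had larger median differences (3.49 and 3.47) than B and C (2.64 and 2.04). Their median levels at 50%-epiboly were 0.0800 and 0.111 RPKM, against 0.860 and 0.257 RPKM in B and C. Clusters A and D also lack measured genes of groups 1 and 5 to 8, which B and C hold. The 3 members short of 2-fold on this scale were hoxb1b (-0.94), hoxb13a (-0.01) and hoxd13a (0.59). In RPKM, without the pseudocount, hoxd13a was 28.6 times as high at 15-somite (0.529) as at 50%-epiboly (0.0185). With a pseudocount of 0.1, 36 members were higher, again with no share of all genes computed. Under median-of-ratios scaling, which divides each library by its median ratio to the geometric mean of all libraries over genes above 0 in every library, 33 members were higher and hoxb1b was past 2-fold lower, while 10.6% of all genes were higher and 14.03% lower.

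In paralog group 1, whose genes pattern the hindbrain, hoxb1b stood apart in level and time. It was at 0.00506 RPKM at 64-cell, 0.421 at oblong-sphere, 54.1 at 50%-epiboly, 27.6 at 15-somite, 14.7 at Prim-25, 16.1 at Long-pec, 15.3 at Pec-fin, 8.76 at Protruding-mouth and 2.76 at 1 week. It is the only member whose highest level fell before 15-somite, and at 50%-epiboly it held 66.8% of the summed hox level. At oblong-sphere its value rested on 128 reads (0.351 to 0.501 RPKM), so it was detected there at a low level. The span of hoxb1b overlaps those of hoxb5b and hoxb6b in RefSeq, so some of its reads may belong to neighbours. Its duplicate hoxb1a, which is known to keep the identity of the fourth rhombomere, was at 0.00538, 0.0175, 1.55, 10.3, 2.54, 4.78, 2.94, 0.672 and 0.266 RPKM over the 9 stages. It was highest 1 stage later and kept 2.57% of its maximum at 1 week, the lowest share of any member. The third, hoxc1a, reached 7.68 RPKM at Pec-fin and was at 0.630 RPKM at 1 week.

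Group 2, which includes hoxa2b, a selector of the second pharyngeal arch, was higher later. The higher member, hoxb2a, was at 0.390, 0.187, 0.187, 6.47, 7.96, 11.9, 10.1, 5.28 and 2.61 RPKM. hoxa2b was at 0.136 RPKM at 50%-epiboly, 9.21 at 15-somite and 9.74 at its highest, Long-pec. Both were thus under 1 RPKM at 50%-epiboly, where hoxb1b of the neighbouring group was at 54.1 RPKM, and both were highest at Long-pec.

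Group 3, genes of the posterior hindbrain and anterior spinal cord, held the highest hox gene after gastrulation. It was hoxb3a, with 0.0481, 0.0269, 1.93, 21.8, 24.9, 35.0, 30.7, 27.4 and 10.6 RPKM, the highest of all members from Prim-25 to 1 week. hoxc3a was at 0.00907, 0.0467, 3.25, 18.3, 14.6, 12.7, 15.0, 12.4 and 6.25 RPKM. It differed from hoxb3a in being highest at 15-somite. The spans of both overlap other hox genes in RefSeq, so some of their reads may belong to neighbours. hoxd3a was at 0.0976 RPKM at 50%-epiboly and between 6.98 and 13.5 RPKM from 15-somite to Protruding-mouth.

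In group 4, of similar axial position, the highest member was hoxd4a, with 0.00709, 0.148, 0.206, 13.7, 12.96, 14.4, 10.4, 7.74 and 3.51 RPKM. hoxb4a was highest at 12.1 RPKM and hoxc4a at 14.1 RPKM, both at Long-pec like hoxd4a. hoxc4a was lower than hoxd4a at 15-somite and Prim-25, with 3.67 and 7.08 RPKM. In RefSeq the spans of hoxb4a, hoxc4a and hoxd4a overlap those of hoxb3a, hoxc3a and hoxd3a, so some of their reads may belong to neighbours.

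Groups 5 to 8 pattern the trunk, and 7 of their 10 members were highest at Pec-fin or Protruding-mouth. The same share of all genes was not computed. In group 5, HOXB5 ENSDARG00000054030 was at 0.0748, 0.169, 0.860, 10.6, 15.6, 23.3, 22.3, 24.3 and 7.52 RPKM, and the other HOXB5 and hoxc5a were also highest at Protruding-mouth, with 20.6 and 9.91 RPKM. Under median-of-ratios scaling HOXB5 ENSDARG00000054030 was highest at Pec-fin and the other 2 still at Protruding-mouth. In group 6, hoxb6b was at 0.00679, 0.0133, 0.253, 6.83, 7.07, 11.7, 16.8, 9.90 and 2.63 RPKM. HOXC6 was at 0.0143, 0.00622, 1.80, 5.53, 6.38, 6.64, 7.92, 9.76 and 3.75 RPKM, and so was already present at 50%-epiboly.

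Group 7 had 1 member, hoxb7a. It was at 1.13, 0.0168, 2.72, 15.0, 3.96, 5.49, 5.52, 5.28 and 3.31 RPKM, highest at 15-somite. In group 8, hoxb8a was at 0.00890, 0.00579, 1.73, 11.3, 19.1, 24.9, 25.7, 21.3 and 7.32 RPKM and hoxc8a at 0.0137, 0.0128, 3.04, 10.4, 4.31, 7.24, 9.94, 8.28 and 2.79 RPKM. From 15-somite to Prim-25 hoxb8a was higher, and hoxc8a, like hoxb7a, was lower (-1.11 on the log2 scale).

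Groups 9 to 13 pattern the posterior trunk and tail and, in clusters A and D, the fins. In group 9, hoxb9a led all hox genes at 15-somite, with 0.0117, 0.0712, 3.26, 33.0, 22.5, 21.9, 19.0, 19.0 and 4.79 RPKM. hoxd9a was at 3.01, 0.836, 0.148, 16.1, 10.4, 14.9, 13.5, 10.49 and 5.29 RPKM. Its lowest value was that at 50%-epiboly, the stage where hoxb9a was first above 1 RPKM. hoxa9b was at 0.0217, 0, 0.0800, 12.6, 8.93, 12.9, 13.5, 11.6 and 2.59 RPKM, and hoxc9a was highest at 8.36 RPKM.

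In group 10 all 4 members had their maximum at 15-somite, between 6.40 and 12.6 RPKM. The highest, hoxb10a, was at 0.0480, 0.00751, 0.750, 12.6, 8.02, 8.18, 9.09, 8.03 and 2.77 RPKM. In group 11, HOXA11 was at 0.0130, 0.211, 0.0942, 13.1, 7.20, 7.76, 8.98, 8.57 and 2.95 RPKM, and hoxc11a at 1.26, 0.581, 0.0686, 4.21, 2.13, 2.92, 4.05, 4.89 and 1.28 RPKM. Both were lower at Prim-25 than at 15-somite. In group 12, HOXC12 was at 0.00983, 0.0767, 0.170, 18.8, 10.4, 12.3, 11.999, 17.2 and 5.79 RPKM, while hoxd12a was at 10.7 RPKM at 15-somite and 3.33 at Prim-25.

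Group 13, the tail-most group, had the lowest median of the 13 groups at 15-somite, 1.11 RPKM, and held the 2 members that were last to reach 1 RPKM. HOXC13 was at 0.00698, 0.00894, 0.0403, 1.93, 6.74, 8.02, 8.09, 7.02 and 2.37 RPKM. hoxb13a was at 0, 0.00879, 0.0997, 0.0930, 3.89, 6.53, 6.68, 5.35 and 2.87 RPKM, so that it was as low at 15-somite as at 50%-epiboly and higher from Prim-25. hoxd13a was at 0.0192, 0.197, 0.0185, 0.529, 1.37, 1.01, 1.62, 0.733 and 0.316 RPKM. hoxa13b was at 0.0157, 0.0580, 0.0538, 1.70, 0.958, 1.84, 2.13, 2.67 and 1.75 RPKM and kept 65.7% of its maximum at 1 week, the highest share of any member. At 15-somite the summed level of group 13 was 4.26 RPKM, against 29.5 RPKM for the 2 genes of group 12.

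In 4 instances both copies of a duplicate in cluster B were measured. hoxb1b was 35.0 times as high as hoxb1a at 50%-epiboly and 2.67 times at 15-somite. hoxb8a was above hoxb8b from 50%-epiboly on, by between 1.83 times (15-somite) and 4.14 times (Protruding-mouth), with 25.7 and 10.45 RPKM at Pec-fin, where hoxb8a was highest. hoxb6b and hoxb6a were close, with 6.83 and 7.76 RPKM at 15-somite and 16.8 and 10.2 RPKM at Pec-fin. The spans of hoxb1b, hoxb6a and hoxb6b overlap other hox genes in RefSeq, so some of their reads may belong to neighbours. HOXB5 ENSDARG00000054030 was 1.13 times as high as the other HOXB5 at 15-somite (10.6 and 9.34 RPKM), between 1.67 and 1.75 times from Prim-25 to Pec-fin, and 1.18 times at Protruding-mouth (24.3 and 20.6 RPKM). For the 22 members whose Pec-fin reads could be split into 2 inferred runs, the log2 ratio of the runs had an SD of 0.078, which is not replicate error. Where several splits gave the same value, the 1 nearest to equal rates was taken, which can lower this SD.

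**Figure D3:**
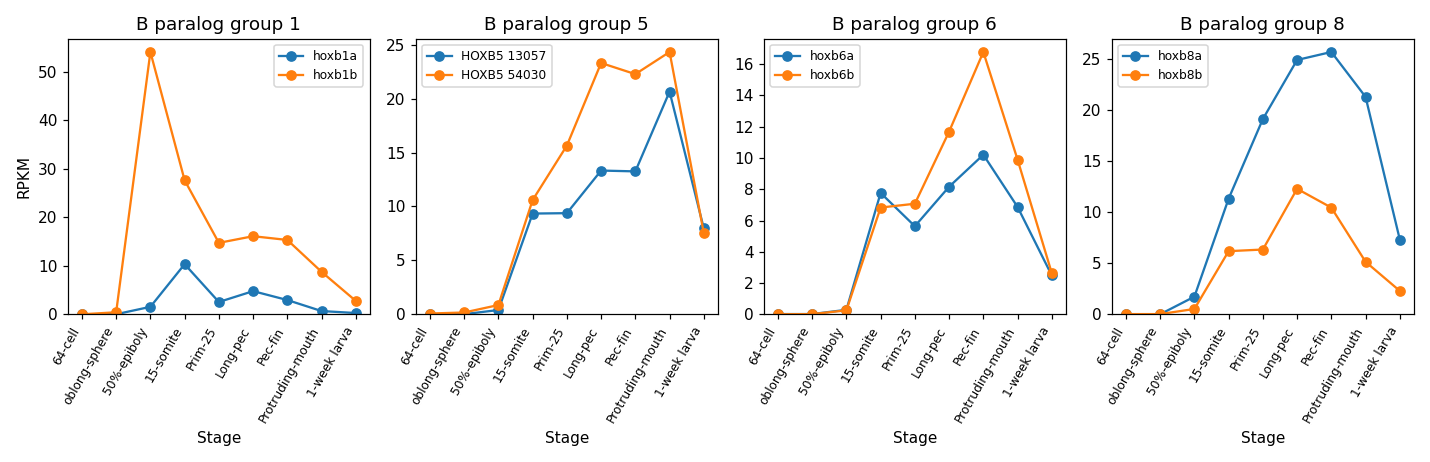
Level in RPKM of both copies of 4 duplicated B genes over the 9 stages, 1 library each, on separate axes from 0. hoxb1b stands far above hoxb1a at 50%-epiboly (54.1 and 1.55 RPKM), hoxb8a above hoxb8b from 50%-epiboly on, and the copies of groups 5 and 6 lie closer together than those of group 1 there. HOXB5 genes carry the last digits of their IDs.

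Counts of members by stage of highest level differed between classes, but some maxima were near ties between single libraries. hoxd11a was at 6.09 RPKM at 15-somite and 6.20 at Pec-fin, and hoxc9a at 7.80 and 8.36 RPKM. Of the 17 members of groups 9 to 13, 9 had their maximum at 15-somite, 6 at Pec-fin and 2 at Protruding-mouth. Of the 11 in groups 1 to 4, 6 had it at Long-pec and 2 at 15-somite. Of the 10 in groups 5 to 8, 4 had it at Protruding-mouth and 3 at Pec-fin. Under median-of-ratios scaling those became 2 and 6, and over all 38 members 3 in place of 7 were highest at Protruding-mouth and 15 in place of 10 at Pec-fin. The share of all genes highest at each stage was not computed, so these counts are not set against genes at large. From 15-somite to Prim-25 only 2 members were at least 2-fold higher, hoxb13a (2.16) and HOXC13 (1.40), and 4 were lower, hoxb7a (-1.69), hoxb1a (-1.68), hoxd12a (-1.44) and hoxc8a (-1.11), against 6.23% higher and 4.96% lower among all genes. Groups 9 to 13 had a median of -0.53 at this step, where all genes had -0.06.

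Between Prim-25 and Long-pec 0 members were past 2-fold in either direction, where 0.81% of all genes were higher and 0.403% lower. Between Long-pec and Pec-fin 0 members were either, where 0.785% of all genes were higher and 0.72% lower. From Pec-fin to Protruding-mouth 2 of 38 were lower, both of group 1, hoxc1a (-1.44) and hoxb1a (-1.24), and 0 higher, where 2.1% and 7.18% of all genes were. Under median-of-ratios scaling 5 members were lower and 0 higher, with 4.75% of all genes lower and 4.14% higher. Over the longer interval of Long-pec to Protruding-mouth, the median difference was -0.81 in groups 1 to 4, 0.01 in groups 5 to 8, -0.05 in groups 9 to 13 and 0.10 in all genes. Under median-of-ratios scaling these medians were -1.02, -0.20, -0.25 and -0.01, so all 3 classes were lower. The difference between classes was not tested.

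From Protruding-mouth to 1 week 22 of 38 members were at least 2-fold lower and 0 higher, where 6.86% of all genes were lower and 15.1% higher. The 22 came to 4 of the 11 members of groups 1 to 4, 7 of the 10 of groups 5 to 8 and 11 of the 17 of groups 9 to 13. Under median-of-ratios scaling 31 members were lower, 9, 9 and 13 of the same classes, with 13.98% of all genes lower and 9.75% higher. The largest differences were those of hoxa9b (-1.81) and hoxb9a (-1.79). At 1 week a member kept a median of 27.0% of its own maximum, 27.3%, 27.6% and 26.3% in the 3 classes, and the range was 2.57% (hoxb1a) to 65.7% (hoxa13b). All 38 were below their maximum. The share kept at 1 week and this count were not computed over all genes. Exocrine enzymes made up 32739 RPKM of a summed 541791 RPKM in this library, and their part in the lower hox values was not tested.

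**Figure D4:**
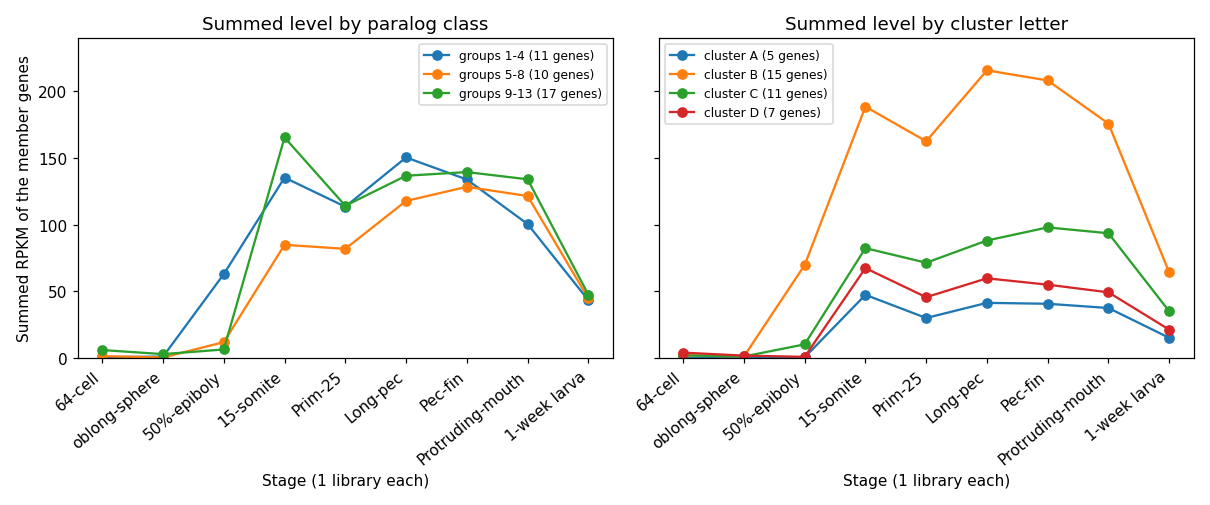
Summed RPKM of member genes by paralog class (left) and by cluster letter (right) at each stage, 1 library each. Groups 9 to 13 go from 6.31 RPKM at 50%-epiboly to 165 at 15-somite, groups 1 to 4 from 62.8 to 135, and all 3 classes lie between 43.3 and 47.4 RPKM at 1 week. Cluster B is the highest from 50%-epiboly on and has 15 of the 38 genes.

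By class, groups 1 to 4 summed to 62.8 RPKM at 50%-epiboly, of which hoxb1b held 86.1%, groups 5 to 8 to 11.8 and groups 9 to 13 to 6.31. At 15-somite the sums were 135, 84.8 and 165 RPKM, 26.2 times the 50%-epiboly value for groups 9 to 13 and 2.15 times for groups 1 to 4. Groups 9 to 13 thus had the highest sum at 15-somite, over 17 genes against 11, while the mean per gene was 12.3 RPKM in groups 1 to 4 and 9.72 RPKM in groups 9 to 13, and the medians were 10.3 and 9.04 RPKM. Groups 1 to 4 had the highest sum at Long-pec (150 RPKM). At 1 week the 3 sums were alike at 43.3, 44.6 and 47.4 RPKM. By cluster, B held between 47.4% and 53.3% of the summed level from 15-somite on. Clusters A and D were highest at 15-somite (47.3 and 67.3 RPKM), B at Long-pec (216 RPKM) and C at Pec-fin (97.9 RPKM). The clusters do not hold the same measured paralog groups.

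Genes that act with or upstream of hox genes were described from lists of known partners and regulators. Their counts at the step from 50%-epiboly to 15-somite stand beside the 16.4% of genes higher and 4.91% lower given above. Median-of-ratios scaling lowers every gene by 0.63 in log2 RPKM at this step, unevenly in log2(RPKM + 1). Of 9 TALE homeodomain genes, whose proteins bind DNA together with Hox proteins, 3 were higher and 0 lower, and the median of 0.23 became -0.23 under that scaling. meis1a had 0.483 and then 20.5 RPKM, and MEIS1 8.70 and then 52.1 RPKM. pbx4, the main Pbx gene of the early zebrafish embryo, was present throughout, between 20.7 and 83.5 RPKM.

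Several factors of the early body axis were far higher at 50%-epiboly than at 15-somite. cdx4, a caudal-type factor that activates posterior hox genes, had 196 RPKM at 50%-epiboly, 58.8 at 15-somite and 1.25 at Prim-25. The ParaHox genes GSX1 (0.324 to 5.17 RPKM) and GSX2 (0.0234 to 3.18 RPKM) were higher at 15-somite, as 2 of 4 in that list were. The remaining ParaHox gene, pdx1, had 1.25 and then 1.63 RPKM and was not past 2-fold. The even-skipped homologue eve1 had 70.7 and then 5.52 RPKM, and EVX2, which flanks the 5′ end of a hox D cluster, 0.0471 and then 0.360 RPKM. Of 9 trunk and tail axis signals 5 were lower and 0 higher, both WNT8A genes most of all (18.4 to 1.03 and 19.4 to 1.19 RPKM). Thus cdx4, eve1 and both WNT8A genes were highest at the stage where hoxb1b was.

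Of 22 genes of the retinoic acid pathway, whose signal activates hox genes of low number, 7 were higher and 5 lower at that step. Under median-of-ratios scaling 9 were lower. A binding protein gene, 1 of those named CRABP2, had 166 and then 10.4 RPKM, and the degrading enzyme gene CYP26A1 105 and then 15.5 RPKM. In the other direction a CRABP1 gene had 0.237 and then 8.54 RPKM and a DHRS3 gene 0.501 and then 8.22 RPKM, while the other DHRS3 gene had 64.0 and then 10.4 RPKM. Of 11 hindbrain segmentation genes 4 were higher and 2 lower, and the median of 0.22 became -0.05 under median-of-ratios scaling. EGR2, which acts in the rhombomeres, had 0.0262 and then 13.8 RPKM, and irx7 had 70.7 and then 7.58 RPKM.

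Chromatin regulators of hox clusters were few per list, so their counts from 50%-epiboly to 15-somite are given beside all genes. Among all genes 16.4% were higher and 4.91% lower, and 10.6% and 14.03% under median-of-ratios scaling. Of 16 Polycomb genes, which keep hox genes silent, 3 were higher and 1 lower, with a median of 0.06 that became -0.28 under median-of-ratios scaling, with 2 higher and 4 lower. The 2 BMI1 genes had 3.65 and then 16.9 RPKM and 1.55 and then 6.77 RPKM, and cbx2 52.7 and then 24.7 RPKM. Of 14 Trithorax genes, which keep them active, 1 was higher, the demethylase gene kdm6bb (0.270 to 2.51 RPKM), and 1 lower, DPY30 (81.3 to 38.8 RPKM). Their median of -0.08 became -0.69 under median-of-ratios scaling, with 1 higher and 2 lower. Of 9 genes of the paired fins 4 were higher and 1 lower, and their median of 0.16 became -0.02 under that scaling. HAND2 had 0.431 and then 12.8 RPKM, FGF10 0.101 and then 3.48 RPKM, and SALL4 98.7 and then 42.6 RPKM.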

How the data were processed

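RPKM values, 1 for each Ensembl gene in each library, were computed and deposited by the authors on genome build Zv9, per the submitters' processing notes. For the aligner, the counting program and any filter, the sources used here name none. The libraries were SOLiD fragment libraries of poly(A) RNA, per the labels. All 9 columns matched 1 stage by name. Symbols matched 19580 of 29291 IDs. Zebrafish names and gene overlaps came from RefSeq (GRCz12tu). Members and lists were chosen with earlier results of these data known.

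Genes at 1 RPKM or more in any library (19868) were kept, with a pseudocount of 1 and a threshold of 2-fold. List names were matched without regard to case, and a name ending in a or b that had no match was matched without that letter. Genes of the lists were named as the 2 with the largest difference past 2-fold in each direction between 50%-epiboly and 15-somite. pbx4, pdx1, EVX2 and the other DHRS3 gene were chosen after their values were seen. Some genes this rule names are not reported here. Members were named as the highest in each paralog group, those at 1 RPKM before 15-somite, those highest before 15-somite or at 1 week, duplicates, and the 2 largest differences per step. Others were added after their values were seen.

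Mapped reads were recovered as the commonest common divisor of the whole-number inverses of the lowest RPKM values, and lengths as the smallest giving whole reads (relative tolerance 1e-09). This gave whole reads for 79.5% of the genes kept. For members, lengths of up to 3000 bases were used, which 22 of 38 had. The Pec-fin column was read as the mean of runs of 171010360 and 59857652 reads. Exact Poisson intervals (95%) and the floor of 3 reads cover counting error only. Alternatives were a threshold of 0.5 RPKM or 10% of a member's maximum, a pseudocount of 0.1, no filter, either Pec-fin run, scaling by the median of ratios or by sums without the 100 most abundant genes, and medians for sums. The code was tested on simulated data. Python 3.11.15, numpy 2.4.6, pandas 2.3.3 and scipy 1.17.1 were used.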

Additional observations from a re-analysis of the deposited data

How the results depend on the processing

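No paired analysis was possible because each stage has 1 library. Of 175 recomputed hox values 146 were equal or stayed within 1.5 times (ratios and the median share left at 1 week: within 5%). The 16 values without the filter were among these and could not differ, since all 38 members pass it. Other values were constrained too. At 0.5 RPKM no member could be first seen later than at 1 RPKM, and the 25 shares without overlapping members could not rise past 1.5 times. With 0.5 RPKM as threshold 2 members were present at oblong-sphere and 14 at 50%-epiboly, and 13 were first seen at 50%-epiboly and 1 at Prim-25; at 10% of a member's own maximum 1 was first seen at oblong-sphere and 1 at Prim-25. With a pseudocount of 0.1 members past 2-fold were 4 higher and 4 lower from 64-cell to oblong-sphere, 21 higher and 3 lower to 50%-epiboly, 4 higher from 15-somite to Prim-25 and 4 lower from Pec-fin to Protruding-mouth. No share of all genes was computed at that pseudocount. Median-of-ratios scaling gave 1 lower (hoxb1b) from 50%-epiboly to 15-somite with 33 higher, and 5 lower from Pec-fin to Protruding-mouth, 31 lower to 1 week, and 3 members highest at Protruding-mouth. Without the 100 most abundant genes 1 member was highest at Prim-25. That scaling also gave 33 members lower from Protruding-mouth to 1 week, against 22, which still counted as within 1.5 times.

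The summed level at 15-somite over that at 1 week was 3.12, 1.90 and 3.49 for groups 1 to 4, 5 to 8 and 9 to 13, and 3.14, 2.94, 2.36 and 3.18 for clusters A to D. Median-of-ratios scaling made these 4.88, 2.97, 5.44, 4.90, 4.59, 3.68 and 4.96, and took the median share left at 1 week to 17.1%. Medians of members in place of sums gave 2.94 and 2.42 for groups 1 to 4 and 5 to 8, and 3.61, 3.61 and 1.98 for clusters A to C. The cause of these shifts was not tested. Leaving out members that overlap another hox gene, or using either Pec-fin run alone, moved no count or share past 1.5 times. With 12 of 38 members left out, no share could rise past 1.5 times, and a share of 0 could not change. Run values replaced the Pec-fin mean only for the 22 members with split reads, and the others, hoxc1a among them, kept the mean. The choice of splits nearest to equal rates can also lower a difference between runs. The 6 unresolved members, whose overlaps were not assessed, were kept when overlapping members were left out. Dropping the filter could change nothing, since all 38 members pass it. The omission of overlapping members, the cluster shares without hoxb1b, and the median-of-ratios values by class were chosen after seeing the data. Class medians near 0 changed sign with the scaling, as in groups 1 to 4 from 15-somite to Prim-25 (-0.07, -0.01 and 0.04).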
